A study of Talpa occidentalis with 24 samples.

Results

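The chromatin of the ovarian part of the Iberian mole ovotestis was set beside that of the mouse ovary, as 2 maps that assign a named chromatin state to every stretch of a genome. The mole map was taken on the scaffolds of at least 1 Mb except scaffolds 15 and 18, which left 17 scaffolds, 1920 Mb and 641465 of its 697647 segments. The mouse map was taken on chromosomes 1 to 19, with 2472 Mb and 3527894 of its 3724059 segments. Together they hold 4169359 of the 9587082 segments in the 5 maps of the study. Both sets were chosen by sequence name and length, with earlier results of these data known. The choice bears on the states: the mole Polycomb share was 5.29% without scaffolds 15 and 18 and 8.64% with them. The 2 genomes were not aligned, so the comparison is one of architecture: how much of the genome each state covers, how long its segments are, what lies beside them, and how far active enhancers lie from promoters.

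The mole tissue is the ovarian part of the ovotestis of wild-type *Talpa occidentalis* at postnatal day 7. In this species the gonads of females hold an ovarian and a testicular part. Its map rests on 8 ChIP-seq libraries (chromatin immunoprecipitation with sequencing), from 4 histone marks with 2 replicates each. The marks are H3K4me3, H3K4me1, H3K27ac and H3K27me3. The mouse gonads were taken from embryos at embryonic day 13.5, per the labels' protocols, and the mouse map belongs to no labelled library, so its genotype and replicates are unknown here. The protocol speaks of whole fixed gonads and the mole labels of the ovarian part, and neither names a sort of cells, so each map mixes the cell types of its tissue. Species, age, organ and genome assembly all differ between the sides and cannot be told apart, and whether the maps were built alike is not known. Each side is 1 map with no replicates and unknown depth. No test between them was run, and the spread over scaffolds or chromosomes given below describes the genome, not animals.

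The marks behind these maps have known habits. H3K4me3 sits at the start sites of active genes, H3K4me1 marks enhancers whether active or waiting, and H3K27ac is added to promoters and enhancers in use. H3K27me3 is laid down by Polycomb repressive complex 2 over genes kept silent. A promoter that carries H3K4me3 together with H3K27me3 is called bivalent, a condition found at developmental genes that are off but can be turned on. In the embryonic gonad both sexes start from a bipotential primordium, and the choice between granulosa and Sertoli cell fates is accompanied by the silencing of the other fate's genes. The maps use 7 state names. There are promoter and bivalent promoter states, enhancer states called active and poised, a state of Polycomb repression, and stretches called undefined or gap. How the authors tied each name to the marks is not given in the sources used here, and neither is whether a name was defined alike in both species. Shares below are percent of the bases in any state but gap.

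The marker genes of ovary and testis could not be looked up, because no gene annotation on the assembly of either map was used here. For the mouse map, the Y chromosome offered a check of the label. Of its 15.9 Mb, 0.185 Mb lay outside the gap state in the ovary, with no promoter or active enhancer base, against 1.14 Mb in the mouse testis map, which had both. The check is partial, since other states were called on the Y in the ovary map too. Bivalent promoter covered 0.098 Mb and Polycomb 0.0608 Mb there, against 0.135 and 0.120 Mb in the mouse testis map.

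Active enhancers and Polycomb repression covered far less of the genome in the mole ovarian part than in the mouse ovary, while the undefined and poised enhancer states covered more. The active enhancer state took 3.96% of bases in the mole ovarian part and 14.2% in the mouse ovary, a ratio of 0.278. The Polycomb state took 5.29% in the mole ovarian part and 29.4% in the mouse ovary, a ratio of 0.180. With scaffolds 15 and 18 and the mouse X chromosome added, the Polycomb shares were 8.64% in the mole ovarian part and 31.3% in the mouse ovary, a ratio of 0.276. The poised enhancer state took 24.99% against 17.4% in the mouse ovary, and the undefined state 64.4% against 37.3%. The rarest states were the closest, with 0.710% promoter and 0.700% bivalent promoter in the mole ovarian part, against 0.894% and 0.781% in the mouse ovary. Of all enhancer bases, active and poised together, 13.7% were active in the mole ovarian part and 45.0% in the mouse ovary.

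Single scaffolds and chromosomes kept these sides apart for active enhancers. Active enhancer share ran over the 17 mole scaffolds from 2.37% on scaffold 6 to 5.92% on scaffold 17, with a median of 4.38%. In the mouse ovary it ran over the 19 chromosomes from 10.9% on chromosome 3 to 19.9% on chromosome 11, with a median of 13.8%, so the ranges did not overlap. Polycomb share had a median of 5.31% over the mole scaffolds, with 9.81% as the second highest and 33.1% on scaffold 19, against 24.99% to 32.01% over the mouse chromosomes. Only scaffold 19 was as high as the mouse chromosomes. Promoter shares overlapped widely, at 0.442% to 2.07% over the mole scaffolds and 0.672% to 1.42% over the mouse chromosomes.

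**Figure D1:**
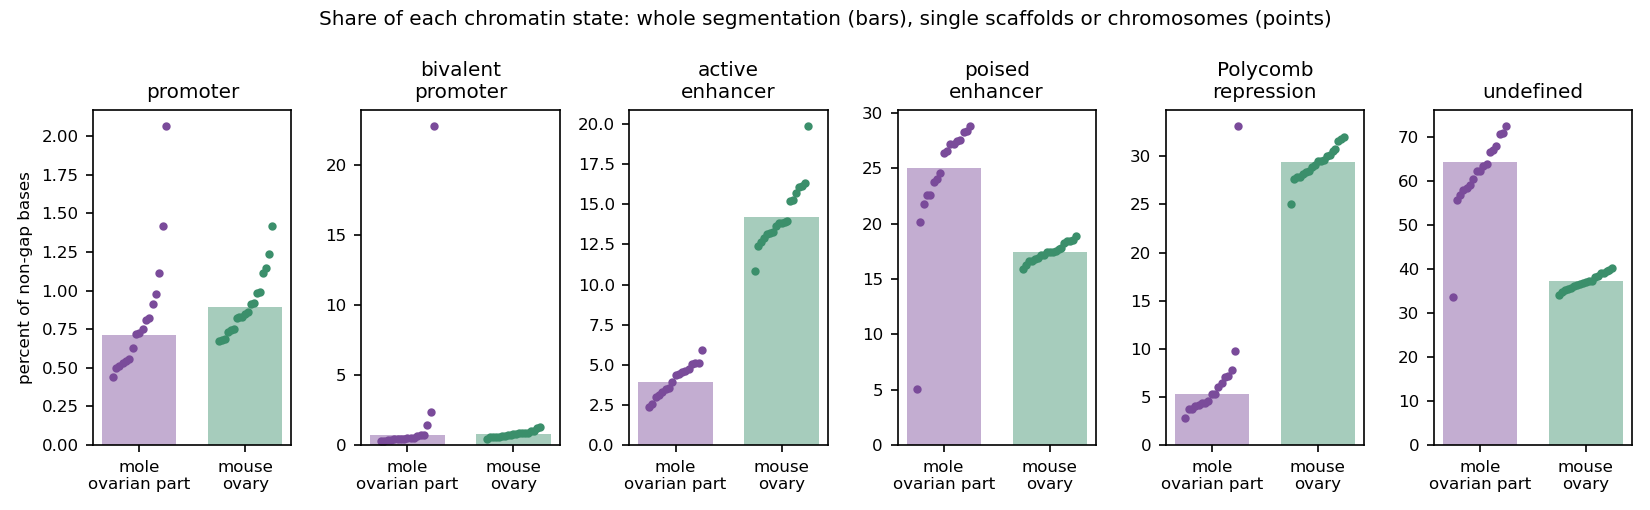
Percent of non-gap bases in each of 6 chromatin states, for the mole ovarian part (left) and the mouse ovary (right) in each panel. Bars give the whole map, points the 17 mole scaffolds or 19 mouse chromosomes in rising order, and each panel has its own axis. The active enhancer points of the mole (at most 5.92%) lie below all mouse points (at least 10.9%), and the single high mole point for the bivalent and Polycomb states is scaffold 19.

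Scaffolds 2 and 19 weighed on the bivalent promoter state. Scaffold 2 held 26.04% of its bases in the mole ovarian part on 7.81% of the non-gap bases, and without scaffold 2 the bivalent share was 0.562%. Scaffold 19 is the smallest of the 17, with 3.78 Mb and 0.170% of the non-gap bases, but it held 5.53% of all bivalent promoter bases of the mole ovarian part. The bivalent state covered 22.8% of it, against at most 2.34% on any other scaffold. Without scaffold 19 the bivalent share of the mole ovarian part was 0.662% and the Polycomb share 5.24%. With scaffolds 15 and 18 and the mouse X chromosome added, the order of the bivalent shares turned round, with a mole to mouse ratio of 1.15 in place of 0.896.

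The other maps of the study give a scale for these differences. The percentage points by which 2 sets of state shares differed (absolute differences summed and divided by 2) came to 34.6 between the mole ovarian part and the mouse ovary. It was 1.87 between the mole ovarian part and the testicular part of the same organ, 5.15 between the mole ovarian part and the mole testis, and 4.23 between the mouse ovary and the mouse testis. Between the mole testis and the mouse testis it was 25.7, so the mole and mouse maps were far apart in the gonads of males as well. Age and genome assembly differ in that pair too, and whether its maps were built alike is not known. These cannot be told apart from species. The active enhancer ratio of mole to mouse was 0.516 in the testis and 0.278 in the ovarian tissue, and the Polycomb ratio was 0.297 in the testis and 0.180 in the ovarian tissue. The Polycomb ratios were nearly equal with the left-out sequences added, at 0.295 in the testis and 0.276 in the ovarian tissue. The bivalent promoter state differed in direction: it covered 0.768% in the mole testis and 0.420% in the mouse testis, a ratio of 1.83. These differences between tissues have no replicate check either.

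The mouse map was cut into many more pieces. The mole ovarian part had 299 segments per Mb of non-gap sequence with a mean length of 3340 bp, and the mouse ovary had 1553 segments per Mb with a mean of 644 bp. Both maps are built from bins of 200 bp, and single-bin segments made up 7.70% of the mole segments and 36.1% of the mouse segments. Most of the excess came from the Polycomb, undefined and poised enhancer states.

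Of the 6 states, Polycomb repression differed most in segment number, and undefined sequence in length. The mole ovarian part had 17.7 Polycomb segments per Mb with a median of 1800 bp and quartiles of 600 and 3800 bp. The mouse ovary had 533 per Mb with a median of 400 bp and quartiles of 200 and 600 bp. Segments of at least 5 kb held 53.2% of the Polycomb bases in the mole ovarian part and 1.62% in the mouse ovary. The longest Polycomb segment was 70.4 kb in the mole, on scaffold 7 at 130393801 to 130464200, and 19 kb in the mouse, on chromosome 12 at 30414801 to 30433800 (mm9, the build named in the submitters' processing notes). In windows of 10 kb, a scale coarser than most mouse segments, 85.8% of windows of the mole ovarian part held no Polycomb base, against 6.905% of those of the mouse ovary. Windows with at least 50% of Polycomb state made up 4.26% in the mole ovarian part and 19.2% in the mouse ovary. Densely covered windows had the other order: at least 80% Polycomb was found in 3039 of 186438 windows (1.63%), against 2416 of 226908 in the mouse ovary (1.06%).

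Active enhancers differed in number rather than in typical length. There were 32.8 active enhancer segments per Mb in the mole ovarian part and 109.6 in the mouse ovary. The median was 800 bp on both sides, with quartiles of 400 and 1600 bp, and the means were 1208 bp in the mole ovarian part and 1297 bp in the mouse ovary. The upper tail was longer in the mouse: segments of at least 5 kb held 9.55% of active enhancer bases in the mole ovarian part and 21.1% in the mouse ovary. The 3 longest of the mole ovarian part measured 23.2 and 21.8 kb, beside each other on scaffold 8 at 36979401 to 37002600 and at 37003601 to 37025400, and 21.6 kb on scaffold 17 at 6551001 to 6572600. Those of the mouse ovary measured 67.0 kb on chromosome 4 at 106603401 to 106670400, 46.4 kb on chromosome 3 at 83738201 to 83784600 and 42.2 kb on chromosome 2 at 167131201 to 167173400. Within 100 kb on either side of the longest ones, 44.3% of non-gap bases were active enhancer in the mole ovarian part and 58.6% in the mouse ovary.

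The poised enhancer state lay in longer and fewer blocks in the mole. It had 111 segments per Mb with a median of 1600 bp in the mole ovarian part, and 305 per Mb with a median of 400 bp in the mouse ovary. Bivalent promoter segments went the other way. There were 5.97 per Mb in the mole ovarian part with a mean of 1173 bp, and 4.10 per Mb in the mouse ovary with a mean of 1907 bp. Most of the higher number came from scaffold 2, which held 3230 of the 10820 bivalent segments: without it the mole ovarian part had 4.54 per Mb, and 4.17 without scaffolds 2 and 19. The longest bivalent segment of the mole ovarian part covered 27.2 kb, on scaffold 2 at 31368401 to 31395600. The next were 25.6 kb on scaffold 7 at 119309401 to 119335000 and 22.2 kb on scaffold 2 at 33737801 to 33760000. All 3 had a Polycomb segment on at least 1 side. In the mouse ovary the longest covered 45.8 kb on chromosome 11 at 96024801 to 96070600, 42 kb on chromosome 9 at 91276801 to 91318800 and 40.8 kb on chromosome 1 at 19193201 to 19234000, all with Polycomb segments on both sides. In the testes, the mean bivalent segment was 1270.5 bp in the mole and 669 bp in the mouse, so the mouse ovary and mouse testis maps stood on opposite sides of the mole maps.

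**Figure D2:**
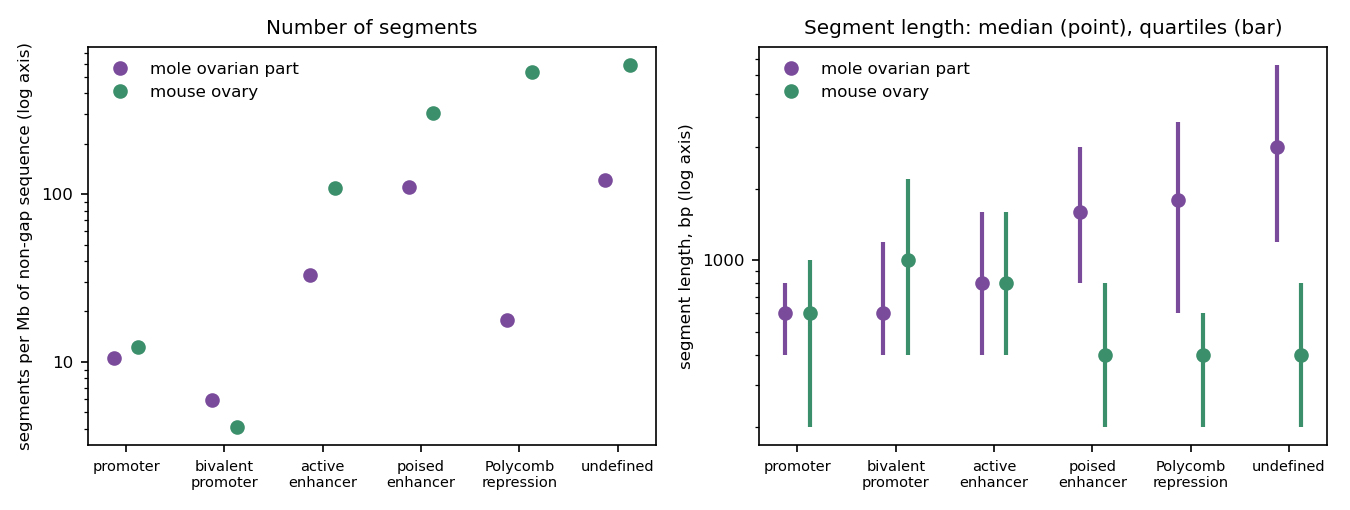
Number of segments per Mb of non-gap sequence (left, log axis) and segment length in bp (right, log axis; point, median; bar, quartiles) for 6 states in the mole ovarian part and the mouse ovary. The number of Polycomb segments differs most, at 17.7 per Mb in the mole ovarian part and 533 per Mb in the mouse ovary, while the median active enhancer is 800 bp in both.

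Promoter segments looked alike until the gap state was taken into account. There were 10.6 promoter segments per Mb in the mole ovarian part and 12.2 in the mouse ovary, and the median was 600 bp on both sides. With single bins closed (a bin of 200 bp between 2 segments of 1 state takes that state) the order of the numbers turned, to 10.3 per Mb in the mole ovarian part and 9.60 in the mouse ovary. In the mole ovarian part, however, 42.9% of promoter segment ends met a gap segment, against 8.81% in the mouse ovary. A gap lay beside 14905 of 19155 promoter segments (77.8%) in the mole ovarian part and beside 4732 of 27162 (17.4%) in the mouse ovary. No other state of the mole ovarian part met gaps as often: the share of ends was 32.1% for undefined, 24.99% for Polycomb, 13.4% for bivalent promoter and 1.90% for active enhancer. In 5937 places a gap with a median of 400 bp lay between 2 promoter segments of the mole ovarian part, and in 1750 places, with a median of 600 bp, in the mouse ovary.

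Most bases of these gaps were gap in the other tissues too. Of the bases of the gaps between promoters of the mole ovarian part, 90.3% were also gap in the map of the testicular part, and 91.1% in that of the mole testis. In the mouse ovary the corresponding share in the mouse testis was 73.9%. Over all gap segments the shares were 78.6% and 84.2% for the mole ovarian part and 91.4% for the mouse ovary, so the order of the species depends on which gaps are taken. When gaps of up to 2 kb between segments of the same state were given that state, promoters of the mole ovarian part numbered 7.15 per Mb with a median of 1200 bp, against 11.3 per Mb with a median of 600 bp in the mouse ovary. The mole to mouse ratio of mean promoter length was then 1.49, where the segments as deposited gave 0.917. The number and length of mole promoters in these maps thus depend on how gaps are treated. What the gap state stands for was not tested.

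Promoter ends away from gaps met active enhancers in similar shares in both. Leaving ends at gaps aside, 82.7% of promoter ends met an active enhancer segment in the mole ovarian part and 83.0% in the mouse ovary. With ends at gaps counted, these were 47.2% and 75.7%. Active enhancers made up 32.8 of 299 segments per Mb in the mole ovarian part and 109.6 of 1553 in the mouse ovary. The shares of ends are not scaled by how common the neighbour is, so similar shares do not mean similar preference. Among promoters with neither side at a gap, active enhancers lay on both sides of 68.2% of 4250 in the mole ovarian part and of 73.4% of 22430 in the mouse ovary. Once short gaps were closed, these shares were 72.7% of 8974 and 74.0% of 24139.

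The surroundings of active enhancers, by contrast, were simpler in the mole. Their ends met poised enhancer in 83.0% of cases in the mole ovarian part and in 76.0% in the mouse ovary, and met promoters in 15.5% and 8.44%. None of 116582 active enhancer ends in the mole ovarian part met an undefined segment. Were the ends independent draws, that count would allow a share of up to 0.00257%. Ends of 1 map are not independent, so the bound covers counting error only. Of 487055 such ends in the mouse ovary 75189 did (15.4%). The testes repeated this, with 1 of 123145 ends in the mole testis and 47740 of 520341 in the mouse testis. In the mole maps, then, an active enhancer was separated from undefined sequence by another state in all but single cases, most often by poised enhancer.

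Bivalent promoters were embedded in Polycomb chromatin in the mole and divided between Polycomb and poised chromatin in the mouse. Polycomb segments met 87.5% of bivalent promoter ends in the mole ovarian part and 53.2% in the mouse ovary. Poised enhancers met 2.29% of them in the mole ovarian part and 37.4% in the mouse ovary. Polycomb lay on both sides of 77.8% of bivalent promoters in the mole ovarian part and of 33.8% in the mouse ovary, among those with no gap beside them. Contact of bivalent promoters with active enhancers made up 7.68% of ends in the mole ovarian part and 0.164% in the mouse ovary. Polycomb made up 17.7 of 299 segments per Mb in the mole ovarian part and 533 of 1553 in the mouse ovary. It was thus the rarer neighbour in the mole, and the shares of ends are not scaled by this.

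From the Polycomb side, bivalent promoters met 34.1% of Polycomb ends in the mole ovarian part (27.9% without scaffolds 2 and 19) and 0.407% in the mouse ovary, where 82.4% of Polycomb ends met undefined sequence. These shares rest on unlike numbers of Polycomb segments, 32133 in the mole ovarian part and 1186205 in the mouse ovary. Borders of bivalent promoter with Polycomb numbered 16414 in the mole ovarian part and 9376 in the mouse ovary. The commonest border in the mole ovarian part was that of poised enhancer with undefined, at 62.1% of all borders without gap. In the mouse ovary it was that of Polycomb with undefined, at 56.1%, a border that made up 5.34% in the mole ovarian part.

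**Figure D3:**
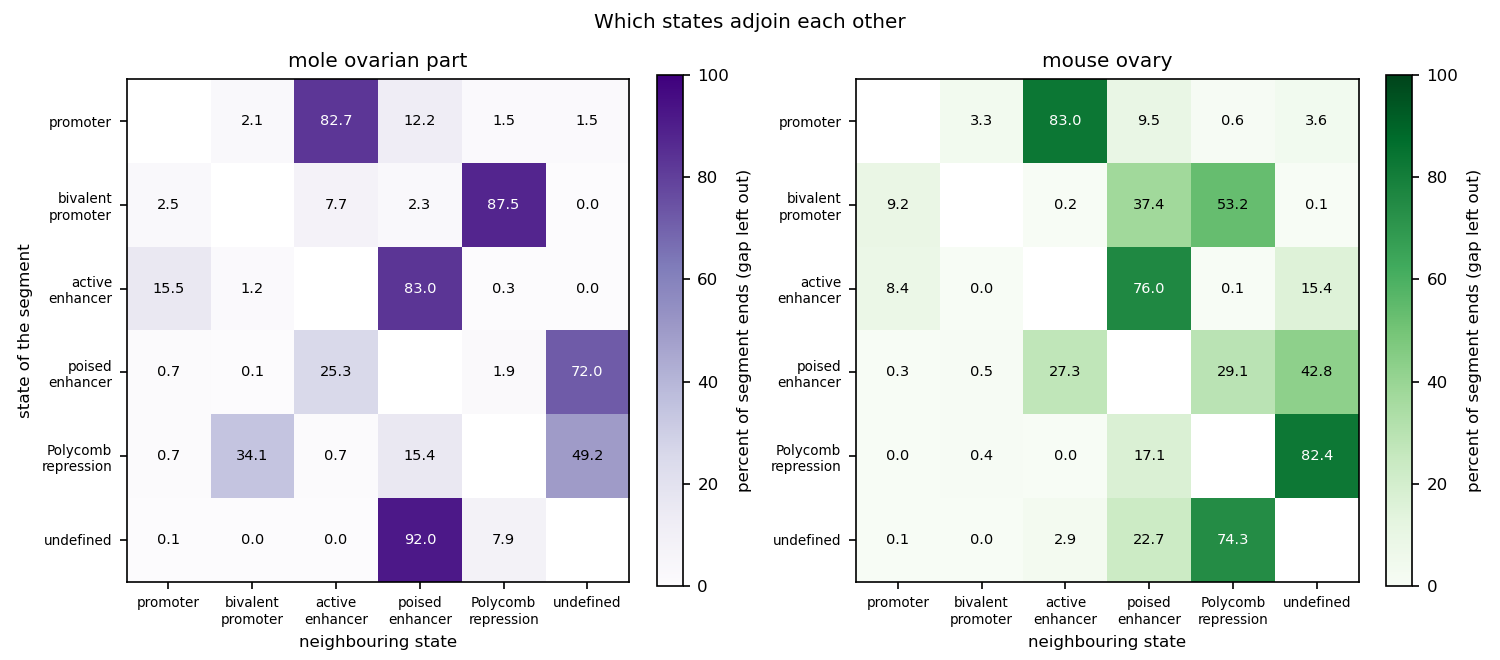
Percent of segment ends of each state (rows) that meet each neighbouring state (columns), ends at gaps left out, in the mole ovarian part (left) and the mouse ovary (right). The promoter rows are alike (82.7% and 83.0% at active enhancer), while the bivalent promoter row is concentrated on Polycomb in the mole (87.5%) and divided in the mouse (53.2% Polycomb, 37.4% poised enhancer).

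Along the genome, Polycomb and active enhancer shares were only weakly related in the mole ovarian part and ran strongly against each other in the mouse ovary. In windows of 1 Mb with less than 50% gap, the rank correlation of the 2 shares was 0.18 over 1892 windows of the mole ovarian part and -0.92 over 2352 windows of the mouse ovary. It was 0.23 in the mole testis and -0.92 in the mouse testis. Polycomb share went with bivalent promoter share in the mole ovarian part (rank correlation 0.62) and weakly against it in the mouse ovary (-0.24). In windows of 100 kb the sign turned for both weak relations: active enhancer with Polycomb gave -0.12 in the mole ovarian part and -0.89 in the mouse ovary, and bivalent promoter with Polycomb gave 0.50 in the mole ovarian part and 0.02 in the mouse ovary. These are descriptions across windows that share libraries and sum to the same total, so no p is given. The part that the overall level of Polycomb (5.29% in the mole ovarian part, 29.4% in the mouse ovary) has in them was not tested. At 10 kb, 9.38% of windows with an active enhancer base also held Polycomb in the mole ovarian part, against 87.0% in the mouse ovary. Of all windows of 10 kb, 85.8% in the mole ovarian part and 6.905% in the mouse ovary held no Polycomb base. A large contrast between the sides is thus present over all windows, not only those with active enhancers.

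Polycomb bases were also more concentrated in the mole. The tenth of windows of 1 Mb richest in Polycomb held 41.3% of all Polycomb bases in the mole ovarian part and 16.1% in the mouse ovary. The highest value this measure can take falls as a state covers more of the genome. Polycomb covered 5.29% of bases in the mole ovarian part and 29.4% in the mouse ovary. At that level the mouse ovary could not have reached 41.3%. The part of the overall level in this contrast was not tested. For active enhancers the shares were close, at 29.75% in the mole ovarian part and 27.6% in the mouse ovary. The window richest in active enhancer state in the mole ovarian part was on scaffold 2 at 34000201 to 35000200, with 19.8% active enhancer, 18.004% bivalent promoter and 15.7% Polycomb. In the mouse ovary it was on chromosome 7 at 87000001 to 88000000, with 60.1% active enhancer, no bivalent promoter base and 3.87% Polycomb. The window richest in Polycomb of the mole ovarian part was on scaffold 7 at 130000201 to 131000200 (46.01%), and it contained the longest Polycomb segment. The next windows lay on scaffold 14 at 83000201 to 84000200 (45.9%) and on scaffold 2 at 2000201 to 3000200 (45.4%), and held 7.39% and 12.8% of bivalent promoter state. The window richest in Polycomb of the mouse ovary was on chromosome 18 (68.3%), ahead of 1 on chromosome 13 at 61000001 to 62000000 (63.1%) and 1 on chromosome 5 at 126000001 to 127000000 (61.6%). These windows are extremes and were chosen on the share that is given.

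**Figure D4:**
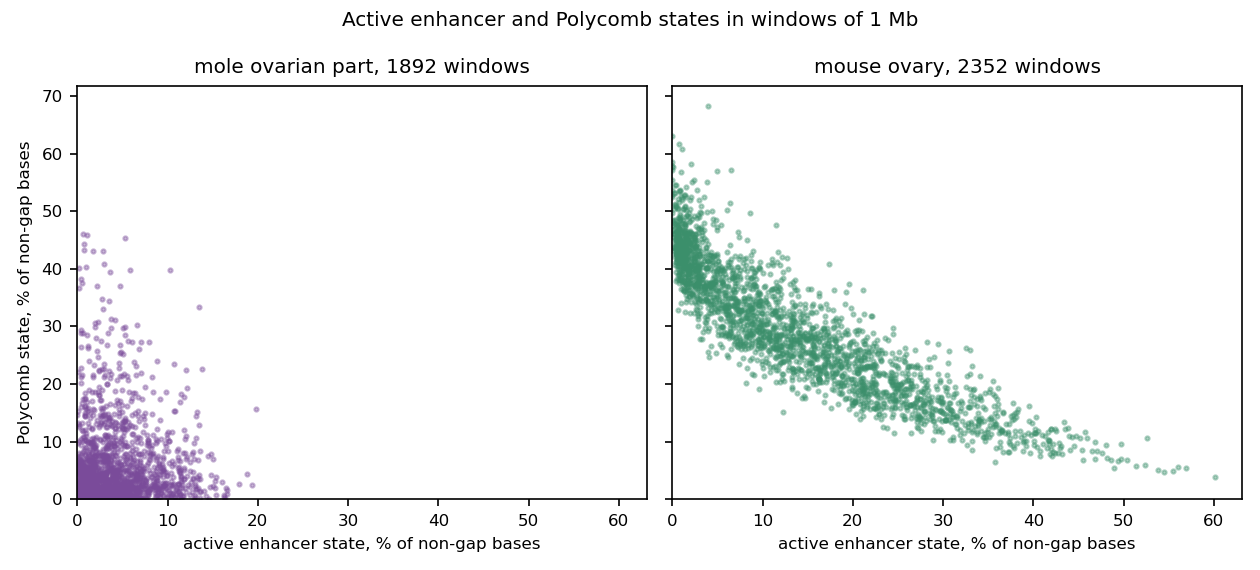
Share of active enhancer state (horizontal, percent of non-gap bases) and of Polycomb state (vertical) in windows of 1 Mb, 1 point per window, in the mole ovarian part (left) and the mouse ovary (right). The mouse points fall along a descending band (rank correlation -0.92), and the mole points lie mostly at low shares of both states (0.18).

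Active enhancers lay at a similar median distance from promoters, but a larger part of them touched one in the mole. The distance from an active enhancer segment to the nearest promoter segment had a median of 16.0 kb in the mole ovarian part and 18.4 kb in the mouse ovary. Of 59421 active enhancers in the mole ovarian part, 17587 adjoined a promoter (29.6%, Wilson 95% interval 29.2 to 30.0). Of 243871 in the mouse ovary 37792 did (15.5%, 15.4 to 15.6). The intervals cover counting error only. Over single sequences the share ran from 25.2% to 41.2% in the mole ovarian part. In the mouse ovary it ran from 12.7% to 19.2%, without overlap. The share is bounded by segment numbers, since each adjoining enhancer takes up a promoter end. There were 38310 promoter ends for 59421 active enhancers in the mole ovarian part, and 54324 for 243871 in the mouse ovary. By promoter the order was reversed: 79.3% adjoined an active enhancer in the mole ovarian part and 90.8% in the mouse ovary. The part of these numbers in the contrast was not tested. Within 10 kb of a promoter lay 44.1% of active enhancers in the mole ovarian part and 37.8% in the mouse ovary. Within 100 kb lay 82.6% and 84.9%.

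The difference at short range was one of segment numbers and not of bases. Active enhancer segments that adjoined a promoter held 23.6% of active enhancer bases in the mole ovarian part and 21.9% in the mouse ovary. Within 2 kb these were 27.02% and 26.8%. At longer range the mouse had more of its bases near promoters, with 39.7% within 10 kb in the mole ovarian part and 47.5% in the mouse ovary. Adjoining segments had a mean of 962 bp in the mole ovarian part and 1834 bp in the mouse ovary, and segments more than 2 kb away had means of 1319 and 1187 bp.

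Length and distance were related differently on the 2 sides. Of single-bin active enhancers, 47.9% adjoined a promoter in the mole ovarian part and 10.3% in the mouse ovary. Of those longer than 5000 bp, 24.3% did in the mole ovarian part and 33.4% in the mouse ovary. The median distance in the mouse ovary fell in each longer class, from 27.8 kb for single bins to 5.2 kb for segments over 5000 bp. In the mole ovarian part it was 1.2 kb for single bins, 24.4 kb for segments over 1000 and up to 2000 bp, and 13.5 kb over 5000 bp.

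Promoter density differed as well. The mean spacing of promoter segments was 94.6 kb in the mole ovarian part and 81.9 kb in the mouse ovary, and the median distance came to 0.169 and 0.225 of that spacing. With short gaps closed the medians were unchanged at 16.0 and 18.4 kb. Promoter density was then 7.15 per Mb in the mole ovarian part and 11.3 in the mouse ovary, in place of 10.6 and 12.2. The spacing was therefore wider, mostly in the mole, and the scaled values hold for the segments as deposited only. In the testes the order was the other way, with a median of 23.2 kb in the mole and 19.2 kb in the mouse. The adjoining share kept its order there, at 26.3% in the mole testis and 10.6% in the mouse testis.

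**Figure D5:**
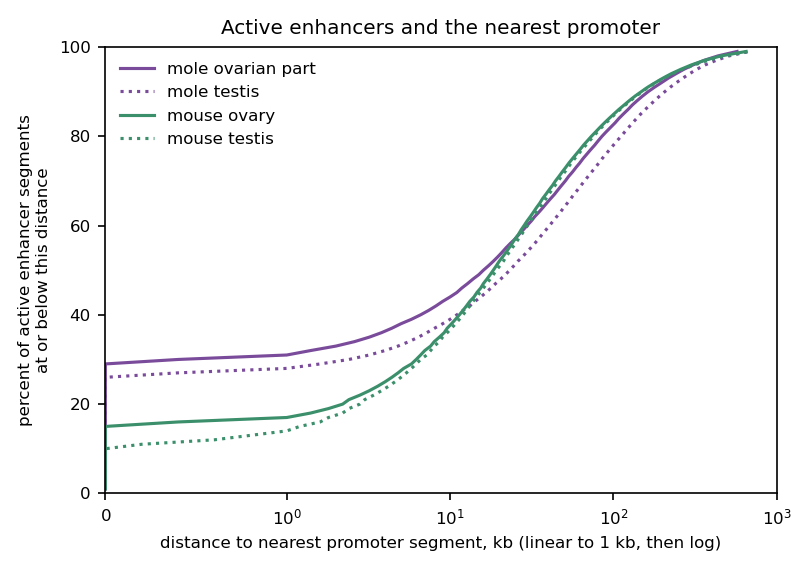
Cumulative percent of active enhancer segments (vertical) by distance to the nearest promoter segment (horizontal, kb, linear to 1 kb and logarithmic beyond) for the mole ovarian part and testis and the mouse ovary and testis. The curves start at the adjoining share, 29.6% in the mole ovarian part and 15.5% in the mouse ovary, and both pass 50% between 10 and 20 kb.

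From the promoter's side, the mouse had more enhancers in reach. The mole ovarian part had 3.10 active enhancer segments per promoter segment, and the mouse ovary 8.98. Once short gaps were closed these were 4.47 and 9.59. Within 100 kb of a promoter lay a median of 11 active enhancers in the mole ovarian part (quartiles 7 and 17) and of 38 in the mouse ovary (28 and 46). No active enhancer lay within 100 kb of 119 promoters of the mole ovarian part (0.621%) and of 32 of the mouse ovary (0.118%). A promoter segment adjoined an active enhancer in 79.3% of cases in the mole ovarian part and in 90.8% in the mouse ovary, and in 87.2% and 91.5% once short gaps were closed. Stretches in which promoter and active enhancer segments adjoined had a median of 1400 bp in the mole ovarian part and 3000 bp in the mouse ovary. Neighbouring active enhancers were a median of 8.2 kb apart in the mole ovarian part and 2.0 kb apart in the mouse ovary.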

How the data were processed

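The deposited files are segmentations that give 1 of 7 chromatin state names per segment of whole 200 bp bins, a categorical value and not a count or coverage. Per the labels, all 8 libraries of a mole tissue belong to 1 table, so marks and replicates are combined in it. Per the file headers, the mouse tables were made with EpiCSeg (no version stated). The tool behind the mole tables is not given in the sources used here. STAR 2.6.1d and the mm9 build appear in the submitters' processing notes, while the mole scaffolds are named talOcc4. Read depth is unknown. Adjoining rows of the same state would have been joined, but there were none.

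Shares, segment numbers and lengths, borders and edge-to-edge distances were computed in Python 3.11.15 with numpy 2.4.6, pandas 2.3.3 and scipy 1.17.1, after checks on made-up segmentations with known answers. Positions count from 1. Regions named come from the 3 longest segments of a state and the 3 windows of 1 Mb (less than 50% gap) richest in active enhancer or Polycomb state. The members, states and settings were chosen with earlier results of these data known, and the gap, single-bin, scaffold 2 and scaffold 19 alternatives after seeing these values. Gene lists could not be used, since the deposited gene models (talOcc3) and the reference gene table (MPIMG_talOcc4v2.1) lie on other assemblies, and no mouse annotation was used here.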

Additional observations from a re-analysis of the deposited data

Results flagged for a closer look

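The contrasts of mole ovarian part to mole testis and of mouse ovary to mouse testis had opposite directions for 5 of 6 states, by share of non-gap bases. The ratio of mole ovarian part to mole testis was 0.911 for bivalent promoter, against 1.86 for mouse ovary to mouse testis. For active enhancer it was 0.672 in the mole and 1.25 in the mouse. For Polycomb it was 0.627 in the mole and 1.04 in the mouse. For poised enhancer it was 1.07 in the mole and 0.882 in the mouse, and for undefined 1.06 and 0.951. The promoter state was above 1 in both, at 1.15 in the mole and 1.04 in the mouse. With scaffolds 15 and 18 and the mouse X added the count was 4 of 6, since the Polycomb ratio was then 1.01 in the mole and 1.08 in the mouse. The 6 shares of a map sum to the same total, so their directions are not independent. Several of the ratios lie near 1. With 1 map per tissue, these differences were not tested.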

How the results depend on the processing

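Ratios here are of mole ovarian part to mouse ovary. With the gap state in the denominator the base share ratio was 0.832 for promoter, 0.292 for active enhancer and 0.189 for Polycomb, against 0.793, 0.278 and 0.180 as reported. With scaffolds 15 and 18 and the mouse X added these were 0.794, 0.280 and 0.276, and the bivalent ratio rose above 1, to 1.15. The added settings gave 0.827, 0.276 and 0.184 with single bins closed (a bin of 200 bp between 2 segments of 1 state takes that state), 0.945, 0.275 and 0.177 with short gaps closed, and 0.791, 0.279 and 0.178 without scaffold 19. For the bivalent promoter state, leaving out scaffold 2 gave 0.719 for the share and 1.11 for segments per Mb, against 0.896 and 1.46. The ratio of Polycomb segments per Mb, 0.0333 as reported, was 0.0512 for segments of at least 400 bp and 0.0516 with single bins closed, which turned the promoter ratio round to 1.07 from 0.866. The ratio of mean length (promoter 0.917, active enhancer 0.931, Polycomb 5.41 as reported) was 0.826, 0.872 and 4.12 with the same length limit, 0.772, 0.749 and 3.57 with single bins closed, and 1.49, 0.933 and 5.82 with short gaps closed. Without scaffold 19 it was 0.916 for promoter and 5.48 for Polycomb. Promoter ends at active enhancers were 47.2% in the mole ovarian part and 75.7% in the mouse ovary with gap ends counted, 84.1% and 85.3% when only segments of 400 bp or more were kept, and 80.3% in the mouse ovary with single bins closed. The median distance ratio, 0.870 as reported, was 0.768 with bivalent promoters added, 0.876 between centres, 0.909 with only segments of 400 bp or more, 0.868 with the added sequences and 0.678 with single bins closed. With windows of 100 kb the richest-tenth ratio was 1.19 for active enhancer and 3.34 for Polycomb, against 1.08 and 2.57. Taking rows as deposited changed nothing. The cause of these shifts was not tested beyond the construction of each setting. No paired analysis was possible because the replicates of a tissue are combined in 1 segmentation, and for the same reason no replicate could be left out.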

Other observations

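Outside the sequences compared, the mouse X chromosome in the ovary map carried 62.9% Polycomb and 1.10% active enhancer state by non-gap bases, against 42.3% and 1.99% in the testis map. Promoter state covered 0.544% of it in the ovary map and 0.521% in the testis map.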
